A study of Rattus norvegicus with 24 samples.

Results

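Fuel and amino acid carriers of the solute carrier superfamily were followed in the hypothalamus of 10-day-old rats whose dams had eaten a high fat or a control diet. They were taken by name, as every row whose symbol begins with Slc1a, Slc2a, Slc3a, Slc7a, Slc16a or Slc38a. The rule found 57 rows across both deposited count tables, which hold 14073 genes for females and 14077 for males. Of these, 55 were in both tables, Slc7a12 was only in the female table and Slc7a15 only in the male table. All but Slc7a6os are named as carriers. Slc7a6os shares the start of its symbol with Slc7a6 and is no carrier itself, but it was kept because the rule is the name.

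The pups were Sprague Dawley rats killed at postnatal day 10 (PN10), and RNA came from whole dissected hypothalamus, not from sorted cells. Offspring of control dams (CON-O) had mothers fed 12% of energy as lipid, and offspring of high fat diet dams (HFD-O) had mothers fed 43%. Dams ate their diet from before mating through pregnancy and lactation, with no cross-fostering. Exposure before conception, before birth and after birth therefore cannot be told apart. There were 4 groups, daughters and sons of each diet, and each held 6 libraries. All CON-O libraries have lower numbers than all HFD-O libraries, so diet and library order cannot be told apart. The files do not say which pups came from 1 litter, so the p-values measure the spread between these libraries only. The paper had fewer control litters than there are CON-O libraries, so some CON-O pups must be litter mates. In bulk tissue, fewer cells of a type and less RNA per cell cannot be told apart.

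Neurons and glia of the hypothalamus depend on fuel that crosses the blood-brain barrier. The Slc2a family carries glucose and other sugars, with Slc2a1 (GLUT1) in barrier endothelium and glia and Slc2a3 (GLUT3) in neurons. The Slc16a family holds the monocarboxylate carriers for lactate, pyruvate and ketone bodies, which suckling rats use as brain fuel, and also carriers for creatine and aromatic amino acids. The Slc1a family takes up glutamate and small neutral amino acids, and the Slc38a family moves glutamine and related amino acids with sodium. The Slc7a family exchanges cationic and neutral amino acids, and several of its members reach the membrane only with a heavy chain of the Slc3a family.

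The sequences just upstream of 6 genes are shown because the results turn on these carriers. Slc16a11 and Slc2a12 moved with the markers of the leptomeninges, and Slc1a3, Slc7a10 and Slc2a1 with those of both astrocytes and endothelium. The call of Slc1a3 on endothelium was lost without male CON-O library 11. Slc16a1 had the smallest diet p over both sexes. Each is the 250 bases before the annotated start on the gene's strand, from RefSeq for the GRCr8 assembly, while the counts were made on rn6. Capitals mark matches, on either strand, to the E-box CACGTG, the GC box GGGCGG, the TATA box TATAAA, the CCAAT box and the nuclear factor I half-site TTGGCA. On the opposite strand the GC box reads CCGCCC and the half-site reads TGCCAA.
Slc16a11: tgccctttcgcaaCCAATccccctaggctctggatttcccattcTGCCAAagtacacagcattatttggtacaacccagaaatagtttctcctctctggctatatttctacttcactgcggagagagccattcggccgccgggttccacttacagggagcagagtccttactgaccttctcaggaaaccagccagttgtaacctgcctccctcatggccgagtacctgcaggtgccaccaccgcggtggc
Slc2a12: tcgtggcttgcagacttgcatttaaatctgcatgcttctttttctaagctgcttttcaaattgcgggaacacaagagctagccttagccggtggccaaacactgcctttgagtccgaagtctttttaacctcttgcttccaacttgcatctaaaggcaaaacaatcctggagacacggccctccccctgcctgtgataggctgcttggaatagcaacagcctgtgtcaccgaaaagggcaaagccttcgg
Slc1a3: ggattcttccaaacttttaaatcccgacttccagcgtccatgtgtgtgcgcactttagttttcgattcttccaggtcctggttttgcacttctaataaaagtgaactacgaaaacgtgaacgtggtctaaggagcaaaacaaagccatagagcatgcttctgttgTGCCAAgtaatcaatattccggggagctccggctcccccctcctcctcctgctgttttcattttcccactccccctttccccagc
Slc7a10: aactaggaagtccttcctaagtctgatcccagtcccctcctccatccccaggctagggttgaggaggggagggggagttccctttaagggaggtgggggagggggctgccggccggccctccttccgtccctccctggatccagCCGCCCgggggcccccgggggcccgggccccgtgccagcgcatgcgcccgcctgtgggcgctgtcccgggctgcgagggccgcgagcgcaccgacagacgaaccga
Slc2a1: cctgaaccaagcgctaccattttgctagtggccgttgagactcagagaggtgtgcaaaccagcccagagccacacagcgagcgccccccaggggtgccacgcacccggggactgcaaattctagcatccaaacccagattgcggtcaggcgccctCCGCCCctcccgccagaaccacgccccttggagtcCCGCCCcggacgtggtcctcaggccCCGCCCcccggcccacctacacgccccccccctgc
Slc16a1: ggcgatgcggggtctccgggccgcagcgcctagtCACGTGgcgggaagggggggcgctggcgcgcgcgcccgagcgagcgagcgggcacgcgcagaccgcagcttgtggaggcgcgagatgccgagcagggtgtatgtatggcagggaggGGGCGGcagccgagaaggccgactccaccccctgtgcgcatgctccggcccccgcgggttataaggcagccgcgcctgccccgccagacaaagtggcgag
Slc16a11 lies on the plus strand at GRCr8 chr10:55427705-55427954 and held a CCAAT box 237 bases and an opposite-strand half-site 206 bases before the start. The window of Slc2a12, on the minus strand at chr1:24677216-24677465, held no match, which says only that these letters are not in it. Slc1a3 is on the minus strand at chr2:59557809-59558058, has 3 annotated starts of which the most upstream was used, and held 1 half-site 85 bases away. The 3 GC boxes of Slc2a1, on the plus strand at chr5:138002272-138002521, lay 95, 60 and 35 bases before the start. Slc7a10, plus strand, chr1:96965872-96966121, held 1 GC box at 106 bases. The E-box of Slc16a1, on the plus strand at chr2:194812410-194812659, lay 216 bases before the start and its GC box 100 bases before it.
GC content was 54% for Slc16a11, 49.2% for Slc2a12 and 48% for Slc1a3, against 72.4% for Slc7a10, 68.4% for Slc2a1 and 74% for Slc16a1. The median over 33469 rat promoters of the same length was 51.2%. Among those promoters the E-box occurred in 5.59%, the GC box in 30.5%, the TATA box in 12.9%, the CCAAT box in 34% and the half-site in 12%. These are letter matches and not measured binding. RefSeq promoters were matched for 43 of the 57 members.

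Library totals ran from 6132112 to 7994399 counts. The hypothalamus was recognisable in the libraries, since 10 of the 11 marker genes fixed for it passed the filter on low counts, but 1 library stood apart. Male CON-O 11 had 2 counts of Agrp, the gene of the hunger peptide of the arcuate nucleus, or 0.301 CPM (counts for every 1e+06 scaled counts of the library), against 5.01 to 15.3 CPM in the other 23 libraries. Its Pomc, the precursor of the satiety peptide of the same nucleus, was 5.41 CPM against 16.0 to 34.7 elsewhere, and Nkx2-1 was also the lowest of all. It also had the highest astrocyte, endothelium and oligodendrocyte marker scores. Where this library turns a direction or a call, the value without it is given beside the result.

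Of the 57 members, 47 were expressed above the filter when all 24 libraries were used, 45 in females and 46 in males. Their counts per library ran from 3 to 8600, and 28 of the 47 had at least 100 counts in every library. The 10 members below the filter never exceeded 12 counts in a library, and none was at 0 throughout. They were Slc1a7, Slc2a2, Slc2a4, Slc7a9, Slc7a12, Slc7a15, Slc16a4, Slc16a5, Slc38a4 and Slc38a8. Slc2a4 encodes GLUT4, the insulin-responsive glucose carrier of muscle and fat, and it had between 0 and 10 counts a library. Slc16a10 passed in neither sex alone, and Slc2a9 passed in males only. By family the filter kept 6 of 7 members of Slc1a, 9 of 11 of Slc2a, 2 of 2 of Slc3a, 12 of 15 of Slc7a, 11 of 13 of Slc16a and 7 of 9 of Slc38a.

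The first question was whether the maternal diet changed carrier transcripts in daughters. No carrier passed an adjusted p of 0.05 in edgeR's quasi-likelihood test, and 0 of all 11409 genes did (0%). At an unadjusted p under 0.05 there were 6 of 45 members, 4 higher and 2 lower in HFD-O, against 7.08% of all genes tested. The higher ones were the sugar carriers Slc2a12 and Slc2a1 and the monocarboxylate family members Slc16a11 and Slc16a1. The lower ones were Slc7a6 and Slc7a4 of the amino acid exchanger family. DESeq2, which called 20 genes in all, and limma-voom, which called 0, also called no member, with 8 and 7 members at an unadjusted p under 0.05. Among the tools run, only edgeR's likelihood ratio test called a member. It called 50 genes in all and 1 of 45 members, Slc2a12, at an adjusted p of 0.0372. The study's own edgeR comparison of daughters listed both Slc2a12 and Slc16a11 at an adjusted p under 0.05, higher in HFD-O. The paper does not say which edgeR test it used. No member had female groups that did not overlap, against 0.412% of all genes.

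Slc2a12 encodes GLUT12, a glucose carrier best known from muscle and fat. In female CON-O its lowest, median and highest levels were 12.5, 15.0 and 16.4 CPM. The HFD-O daughters had 15.5, 21.6 and 25.5 CPM. All 6 HFD-O daughters were above the CON-O median, and the groups overlapped only at the lowest HFD-O library. The log2 fold change was 0.48 ± 0.117 (SE), with p = 0.000762 and an adjusted p of 0.239 in edgeR's quasi-likelihood test, and the exact two-sided permutation test gave p = 0.00649. In sons the 2 groups lay over each other, with medians of 17.8 CPM in CON-O and 18.0 CPM in HFD-O, although the HFD-O maximum of 32.9 CPM in library 23 was the highest of all 24 libraries.

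Slc16a11 encodes a member of the monocarboxylate family that has been linked to lipid metabolism in human liver. Its levels in female CON-O were 5.87, 7.76 and 10.1 CPM at the lowest, median and highest. In female HFD-O they were 8.89, 11.7 and 17.3 CPM. Again all 6 HFD-O daughters were above the CON-O median, while the ranges overlapped. The log2 fold change was 0.61 ± 0.167 (SE), with p = 0.00195 and an adjusted p of 0.279 by the quasi-likelihood test, and the exact permutation p was 0.0108. Male CON-O ranged from 6.52 to 16.2 CPM and male HFD-O from 5.93 to 17.2 CPM, so the ranges covered nearly the same span. The RefSeq gene table places Slc16a11 within the span of its family member Slc16a13, so reads may be shared where counting did not use strand, a setting not given in the sources used here. Slc16a13 was 0.08 higher in HFD-O daughters and 0.18 higher in HFD-O sons on the log2 scale, with neither past an unadjusted p of 0.05.

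Markers of the leptomeninges, the thin membranes that cover the brain, were higher in the same daughters' group as both genes. All 7 of the leptomeningeal markers tested in daughters were higher in HFD-O, 5 of them at an unadjusted p under 0.05, and their score (mean log2 CPM) was higher by 0.55 (exact permutation p = 0.0216). Over the 10 kept markers of 15, the summed level was 42.2 to 58.0 CPM in female CON-O and 50.4 to 99.8 CPM in female HFD-O, with none at 0 in all libraries. In sons 7 of 8 markers were higher, the sum ran from 43.7 to 93.3 CPM in CON-O and from 48.2 to 122.4 CPM in HFD-O, and the score difference of 0.39 had an exact permutation p of 0.186. With that score as a term in the model, the female difference was 0.21 for Slc2a12 (adjusted p = 0.835) and 0.15 for Slc16a11 (adjusted p = 0.884) by the quasi-likelihood test. With the score of erythroid (red cell) markers instead, the differences were also smaller, at 0.31 for each gene. With the endothelium score they were 0.66 and 0.64. Neuron markers differed as well, with 11 of 12 lower in HFD-O daughters and a score difference of -0.089 (exact permutation p = 0.0281). Their summed level was 8067 to 9471 CPM in CON-O and 7983 to 8973 CPM in HFD-O. With the neuron score in the model the female differences were 0.63 for Slc2a12 and 0.61 for Slc16a11. The leptomeninges and neuron scores themselves differed between the diets in these daughters. Fits with a score therefore cannot tell diet apart from the make-up of the tissue, and the cause was not tested.

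**Figure D1:**
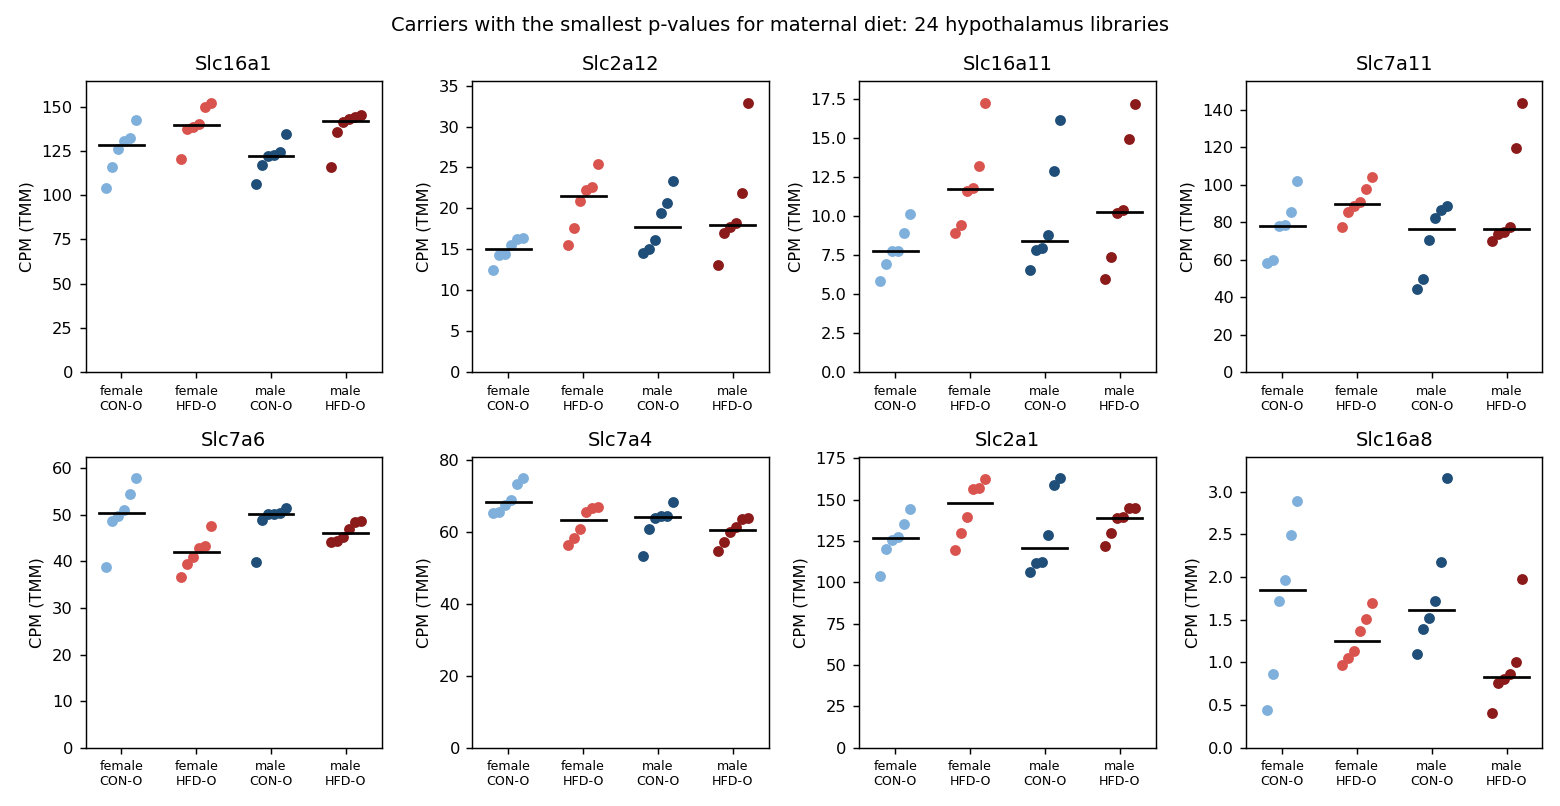
Level in CPM of the 8 carriers with the smallest diet p in daughters or in both sexes together. Each point is 1 library and each black line a group median, and the points of CON-O and HFD-O overlap in every panel, also for Slc2a12 and Slc16a11, where all 6 HFD-O daughters are above the CON-O median.

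Among the sons 0 of 46 members were called, as were 0 of 11476 genes (0%), and 2 members had an unadjusted p under 0.05 against 4.93% of all genes. DESeq2 and limma-voom likewise called none, with 2 members each at an unadjusted p under 0.05, and the likelihood ratio test called none, with 3. No member had male groups that did not overlap, against 0.305% of all genes. The 2 members were Slc16a1 and Slc16a8, which differed in opposite directions.

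Slc16a1 encodes MCT1, the carrier of lactate and ketone bodies in brain endothelium and glia. Male CON-O had 106, 122 and 135 CPM at the lowest, median and highest. Male HFD-O had 116, 142 and 145 CPM. The log2 fold change was 0.18 ± 0.062 (SE), p = 0.00905, with an adjusted p of 0.949 by the quasi-likelihood test and an exact permutation p of 0.0303. All but 1 HFD-O son were above the CON-O median, the exception being library 19. In daughters the levels were 104, 128 and 143 CPM in CON-O against 121, 140 and 152 CPM in HFD-O, a difference of 0.16 ± 0.071 (SE) with an exact permutation p of 0.0714. The direction was therefore the same in both sexes with sizes within each other's error. Without male CON-O 11 the male difference was 0.22 and its adjusted p 0.656. The other lactate carriers of brain, Slc16a7 (MCT2) and Slc16a3 (MCT4), differed by -0.16 and 0.06 in sons and by -0.25 and 0.25 in daughters, each with an error of at least 0.137.

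Slc16a8 encodes MCT3, a lactate carrier of the retinal pigment epithelium and choroid plexus epithelium. It was near the limit of detection, with 3 to 21 counts a library. Male CON-O had 1.10, 1.62 and 3.16 CPM and male HFD-O 0.408, 0.834 and 1.98 CPM. Only 1 of the 6 HFD-O sons was above the CON-O median. Its log2 difference of -0.91 ± 0.338 (SE), the lowest fitted value among the 11476 genes tested in sons, had p = 0.0158, an adjusted p of 0.949 by the quasi-likelihood test and an exact permutation p of 0.026. Without male CON-O 11, which had the highest level of Slc16a8 in its group, the difference was -0.70. The choroid plexus marker score was higher in HFD-O sons by 0.11 on the log2 scale (exact permutation p = 0.0216), the opposite direction to Slc16a8. Of the 6 markers tested in sons 5 were higher, none at an unadjusted p under 0.05. Over the 8 kept markers of 9, without Ttr, the summed ranges nearly coincided. They were 22.25 to 27.89 CPM in male CON-O and 22.98 to 27.96 CPM in male HFD-O. Whether choroid plexus content bears on the Slc16a8 difference was not tested.

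Taking all 24 libraries, with sex in the model, no member was called, while 22 of 11630 genes were (0.189%). There were 9 of 47 members at an unadjusted p under 0.05, 5 higher and 4 lower in HFD-O, against 12.7% of all genes. The likelihood ratio test and DESeq2 each had 8 such members and limma-voom 10, and none of the 3 called a member, while they called 93, 93 and 18 genes in all. With neighbouring library numbers treated as correlated in limma-voom, 1 gene and no member was called. Slc16a1 came first, at 0.17 ± 0.049 (SE) and an adjusted p of 0.135 by the quasi-likelihood test. In limma-voom with neighbouring library numbers correlated, the adjusted p of Slc16a1 was 0.457. The others were higher for Slc2a12, Slc7a11, Slc16a11 and Slc3a2 and lower for Slc7a6, Slc16a8, Slc7a4 and Slc38a7. Without male CON-O 11 the adjusted p of Slc16a1 was 0.0904.

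Among the amino acid exchangers, Slc7a11 and Slc7a6 had the smallest p over both sexes that were not shared with the sugar and monocarboxylate carriers. Slc7a11 encodes xCT, which brings in cystine for glutathione in exchange for glutamate. Its daughters' levels were 58.3, 78.1 and 102 CPM in CON-O against 77.3, 89.7 and 104 CPM in HFD-O. In sons they were 44.3, 76.6 and 88.6 CPM in CON-O against 70.0, 76.2 and 144 CPM in HFD-O. The male medians were almost equal and the HFD-O maximum was library 23, the same library that was highest for Slc2a12. Over both sexes the log2 difference was 0.32 ± 0.127 (SE), with an adjusted p of 0.283 by the quasi-likelihood test, and with the leptomeninges score in the model it was 0.08.

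Slc7a6 encodes the light chain of a carrier that exchanges cationic for neutral amino acids (y+LAT2). Levels in daughters were 38.9, 50.4 and 57.8 CPM in CON-O and 36.6, 42.0 and 47.6 CPM in HFD-O. No HFD-O daughter was above the CON-O median. The log2 difference was -0.26 ± 0.086 (SE), p = 0.00838, with an adjusted p of 0.482 by the quasi-likelihood test and an exact permutation p of 0.0303. In sons it was -0.07. Slc7a6os, whose name marks it as the opposite-strand neighbour, differed by -0.12 in daughters and 0.01 in sons, and without a stated strand setting the reads of the pair cannot be told apart. The female difference of Slc7a6 was larger in size with the leptomeninges score in the model, at -0.41, and smaller with the endothelium score, at -0.14, or the neuron score, at -0.16.

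Slc7a4 belongs to the cationic amino acid transporter branch by sequence. Female CON-O had 65.3, 68.3 and 75.0 CPM and female HFD-O 56.5, 63.3 and 67.0 CPM. None of the HFD-O daughters was above the CON-O median, and the log2 difference was -0.15 ± 0.059 (SE) with an exact permutation p of 0.0281. Slc3a2, the CD98 heavy chain that carries Slc7a5, Slc7a6, Slc7a8, Slc7a10 or Slc7a11 to the membrane, had 201, 226 and 234 CPM in female CON-O and 227, 236 and 244 CPM in female HFD-O. All 6 HFD-O daughters were above the CON-O median, yet the log2 difference was only 0.09, with an exact permutation p of 0.0476 and an adjusted p of 0.719 by the quasi-likelihood test. The large neutral amino acid exchanger Slc7a5 (LAT1), its main light chain at the blood-brain barrier, had medians of 232 CPM in CON-O and 226 CPM in HFD-O daughters. The diet differences of the heavy chain and of LAT1 were thus small and, over both sexes, opposite in sign, at 0.07 and -0.06. The cationic carrier Slc7a1 and the neutral exchanger Slc7a8 (LAT2) differed by 0.06 and 0.07 in daughters and by 0.00 and -0.03 in sons, where the values without male CON-O 11 were 0.07 and 0.01.

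For the classical glucose carriers of brain, Slc2a1 was higher in HFD-O daughters and Slc2a3 did not pass any threshold. Slc2a1 had 104, 127 and 144 CPM in female CON-O and 119, 148 and 162 CPM in female HFD-O, a log2 difference of 0.19 ± 0.082 (SE) with an adjusted p of 0.67 by the quasi-likelihood test. Its exact permutation p was 0.0823, with 5 of 6 HFD-O daughters above the CON-O median. In daughters 12 of 16 endothelial markers were also higher, their summed level being 419 to 518 CPM in CON-O and 460 to 578 CPM in HFD-O. With the endothelium score in the model the female difference of Slc2a1 was 0.06 and the male one, 0.07 without it, was -0.04. Without male CON-O 11 the male difference was 0.14. Slc2a3 differed by -0.07 in daughters and 0.05 in sons, and without male CON-O 11, where it was at 67.8 CPM, the male value turned to -0.02. The inositol carrier Slc2a13 differed by -0.07 and -0.03.

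Glutamate uptake by glia rests on Slc1a2 and Slc1a3, and neither had a small diet p. Slc1a2 had 87.8, 227 and 321 CPM in female CON-O and 119, 180 and 216 CPM in female HFD-O. Male CON-O had 98.8, 206 and 280 CPM and male HFD-O 122, 177 and 222 CPM. Medians were lower in HFD-O in both sexes, but the log2 differences of -0.22 ± 0.230 (SE; 95% interval -0.67 to 0.23) and -0.21 ± 0.194 (-0.59 to 0.17) were within the spread of the libraries. Slc1a3 had medians of 995 and 948 CPM in daughters and 958 and 957 CPM in sons. The glutamate carrier Slc1a1, which is mainly neuronal, differed by -0.03 in daughters and -0.05 in sons, and Slc1a6, best known from Purkinje cells, by -0.06 and -0.12. The neutral amino acid carriers Slc1a4 (ASCT1) and Slc1a5 (ASCT2) differed by -0.03 and 0.10 in daughters and by -0.03 and -0.08 in sons. All of these were smaller than 2 standard errors.

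In the Slc38a family, Slc38a3 supplies glutamine from astrocytes, and Slc38a1 and Slc38a2 take it up in neurons and other cells. Slc38a3 had medians of 184 and 192 CPM in daughters and 178 and 189 CPM in sons, where the log2 difference was 0.00 and, without male CON-O 11, 0.10. In sons Slc38a2 differed by 0.06, and by 0.01 without that library. Slc38a2 was tightly held in female CON-O, between 151 and 154 CPM, whereas female HFD-O ran from 143 to 177 CPM. Slc38a1 differed by -0.19 in daughters and -0.10 in sons. Only Slc38a7, a glutamine carrier of lysosomes, was among the members at an unadjusted p under 0.05 over both sexes, at -0.10 with an adjusted p of 0.368.

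Over all members, higher and lower ones were close to even, while single families were less so. In daughters 22 of 45 members were higher and 23 lower, with a median log2 difference of -0.01, beside 49.4% of all genes higher and a median of 0.00. In sons it was 23 of 46 higher, beside 49.6% of all genes. Slc16a had 6 of 10 members higher in daughters and 8 of 10 in sons, with medians of 0.08 and 0.05. Slc7a had 5 of 12 higher in daughters and 4 of 12 in sons, with medians of -0.04 and -0.06. Slc1a had 2 of 6 and 1 of 6 higher, Slc2a 4 of 8 and 5 of 9, Slc3a 1 of 2 in each sex, and Slc38a 4 of 7 in each sex. No family's median departed from 0 by more than 0.08.

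**Figure D2:**
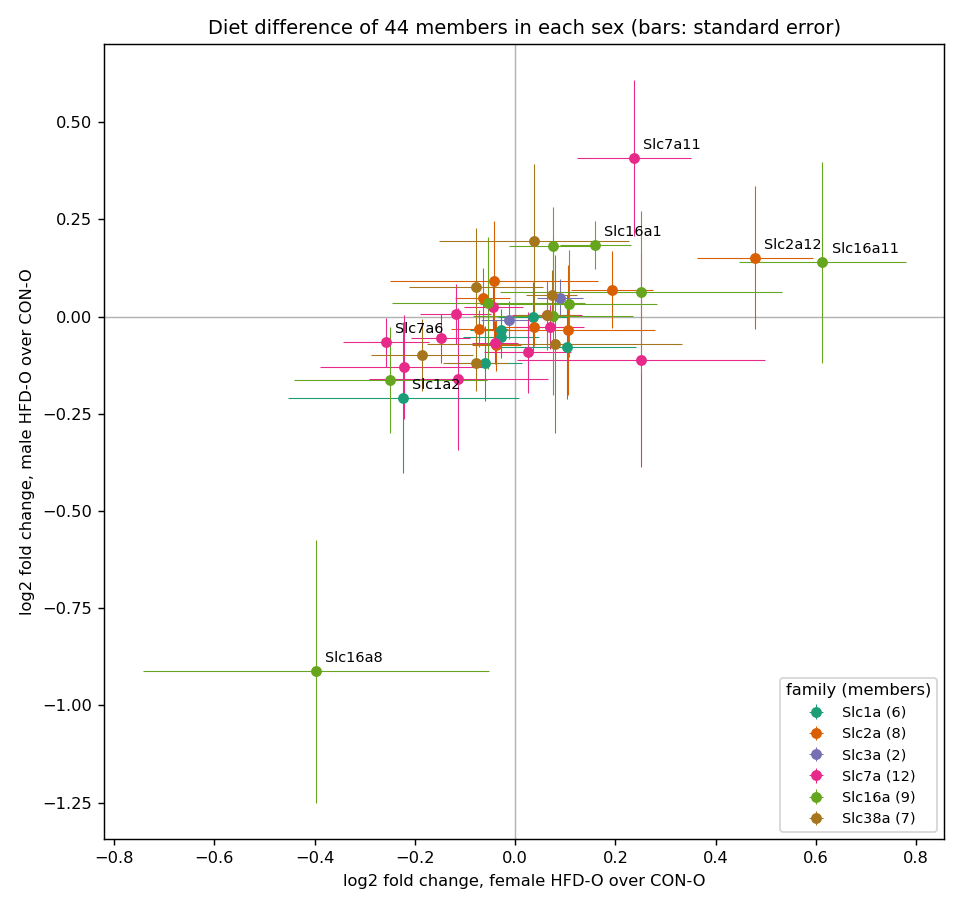
Log2 fold change of HFD-O over CON-O in sons against that in daughters for 44 members tested in both sexes, with standard errors as bars and colours for families. Signs were the same for 31 members, Slc16a1 sits at about the same value on each axis, and Slc2a12 and Slc16a11 lie further along the female axis. The share of all genes with the same sign was not computed.

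The diet differences of daughters and sons were compared by their interaction. Signs were the same in both sexes for 31 of 45 members, 15 higher and 16 lower. The share of all genes with the same sign was not computed, so this count has no background. No member had an adjusted p under 0.05 for the interaction, nor did any of the 11630 genes (0%). At an unadjusted p under 0.05 there were 0 of 47 members by the quasi-likelihood test, against 1.53% of all genes, with 1 by the likelihood ratio test, 1 by DESeq2, 0 by limma-voom and 2 by limma-voom with neighbouring library numbers correlated. For Slc16a11 the male minus female difference was -0.47 ± 0.333 (SE), with a 95% interval of -1.12 to 0.18, and for Slc2a12 it was -0.32, with an interval of -0.78 to 0.13. A difference between the sexes in the diet response of these carriers was therefore not shown. For Slc7a6 it was 0.19 ± 0.109 (SE).

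The next comparison was between sons and daughters over both diets. Since each sex has its own table, sex and table cannot be told apart. No member was called, whereas 4 genes were (0.0344%), and 1 of 47 members had an unadjusted p under 0.05 against 1.87% of all genes, a count that was also 1 by the likelihood ratio test, DESeq2 and limma-voom. That member was Slc7a4, lower in males by the model, at -0.10 ± 0.042 (SE) with an adjusted p of 1. The next were Slc38a7, at 0.07, and Slc16a14, at 0.17, followed by Slc7a5, Slc3a2 and Slc16a7 at -0.04, -0.04 and 0.15. Medians of Slc7a4 in CON-O were 68.3 CPM in daughters and 64.2 CPM in sons, and in HFD-O 63.3 and 60.7 CPM.

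Carriers are unevenly spread over the cell types of the brain, so their levels were set against marker scores within the 4 groups. A slope is the log2 change of a carrier for 1 standard deviation of the score, with group in the model and all 24 libraries. No carrier was in a marker list. On the astrocyte score, 7 of 47 members were called by the quasi-likelihood test, against 7.28% of all genes. All 7 rose with it: Slc1a3 by 0.13 ± 0.0166 (SE; adjusted p = 1.3e-05), Slc38a3 by 0.11, Slc7a10 by 0.13, Slc2a1 by 0.13, Slc7a1 by 0.09, Slc1a2 by 0.29 and Slc16a1 by 0.07. Slc1a3, Slc1a2 and Slc38a3 are the glutamate and glutamine carriers of astrocytes, and Slc7a10 is an exchanger of small neutral amino acids including serine and glycine. Without male CON-O 11, 5 of the 7 were called, Slc7a1 and Slc16a1 being the ones lost, while calls over all genes went from 847 to 478.

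On the endothelium score 5 of 47 members were called, Slc38a3, Slc2a1, Slc7a10, Slc1a3 and Slc3a2, against 6.33% of all genes. On the oligodendrocyte score there were 3, Slc7a10, Slc38a3 and Slc2a1, against 5.12%. Without male CON-O 11 these counts were 3 and 0, while calls over all genes went from 736 to 149 and from 596 to 113. On the endothelium score Slc1a3 (adjusted p = 0.107 by the quasi-likelihood test) and Slc3a2 were the ones lost. On the oligodendrocyte score Slc2a1 was also lost without some other single libraries, and Slc38a3 without female CON-O 12 (adjusted p = 0.073). The astrocyte and endothelium scores themselves were correlated across the 24 libraries after removal of group means (Pearson's r = 0.874, Spearman's rho = 0.835, permutation p = 1e-05 for each, the smallest the draws can give, and 6e-05 after Benjamini-Hochberg adjustment over 6 pairs of scores, r = 0.787 without the 2 libraries farthest from the median). A carrier's slope on one of these scores therefore cannot be told apart from its slope on the other.

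On the leptomeninges score 3 of 47 members were called, against 2.18% of all genes. All 3 rose with it. They were Slc16a11, which rose by 0.36 ± 0.0416 (SE; adjusted p = 1.3e-06), Slc2a12 by 0.24 ± 0.0339 (adjusted p = 3.4e-05), and Slc38a2 by 0.07 ± 0.0160 (adjusted p = 0.0125). Slc16a11 and Slc2a12 had positive slopes inside each of the 4 groups, of 0.55, 0.71, 0.85 and 1.07 and of 0.55, 0.45, 0.47 and 0.87 log2 units per log2 unit of score, in the order CON-O daughters, HFD-O daughters, CON-O sons and HFD-O sons. They therefore varied with these markers also among pups of 1 diet and 1 sex. Slc38a2 had a slope of -0.01 in female CON-O and positive slopes in the other groups. All 3 were also called without male CON-O 11, but Slc38a2 was lost without female HFD-O 20 (adjusted p = 0.051) or male HFD-O 23 (adjusted p = 0.101).

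Of the 47 members, none was called on the neuron score, as was no gene (0%), with 7 members at an unadjusted p under 0.05. The nearest were Slc1a3 at -0.09, Slc2a10 at -0.16, Slc7a11 at -0.15 and Slc16a10 at 0.28. None was called on the choroid plexus score either, again with no gene called (0%) and 4 members at an unadjusted p under 0.05, of which Slc1a2, at -0.23, was nearest. On the erythroid score 0 members were called against 0.249% of all genes, with 2 at an unadjusted p under 0.05, and Slc16a11 was nearest at 0.29 (adjusted p = 0.0687). For the scores the share of all genes at an unadjusted p under 0.05 was not computed. The member counts at that threshold therefore cannot be set against a background. The erythroid and leptomeninges scores were correlated (r = 0.692, permutation p = 0.0018, adjusted 0.0027 over the 6 pairs; rho = 0.777, permutation p = 2e-04; r = 0.701 without the 2 libraries farthest from the median). Altogether 11 members were called on at least 1 score and 4 on more than 1. The same shares over all genes were not computed, so these 2 counts have no background and show no trait of carriers.

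**Figure D3:**
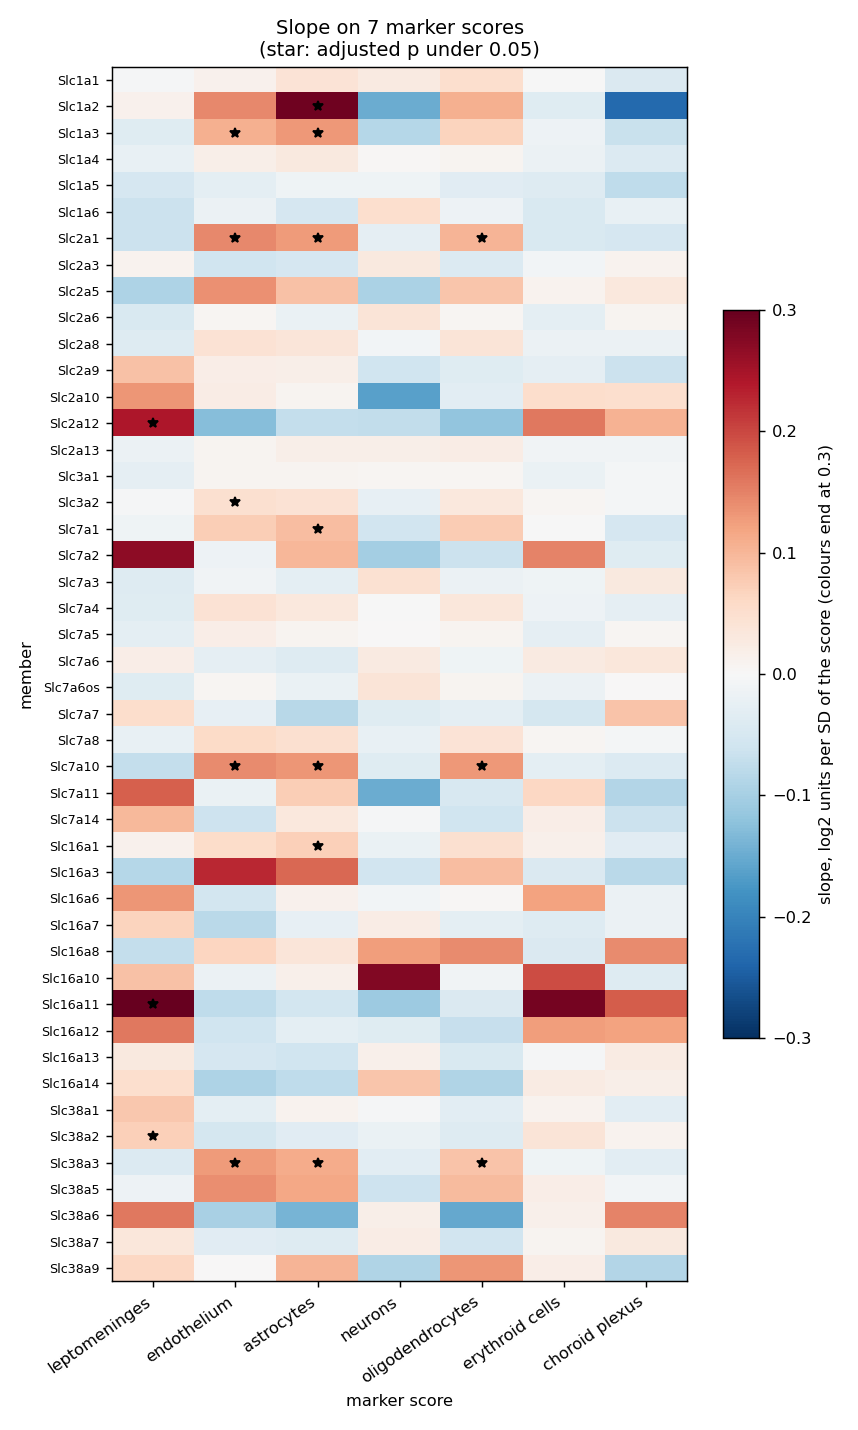
Heat map of the log2 change of 46 kept members for 1 standard deviation of 7 marker scores, with group in the model and a star for an adjusted p under 0.05. Stars fall on 7 members for astrocytes, 5 for endothelium, 3 for oligodendrocytes and 3 for leptomeninges, and on none for neurons, erythroid cells and choroid plexus.

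**Figure D4:**
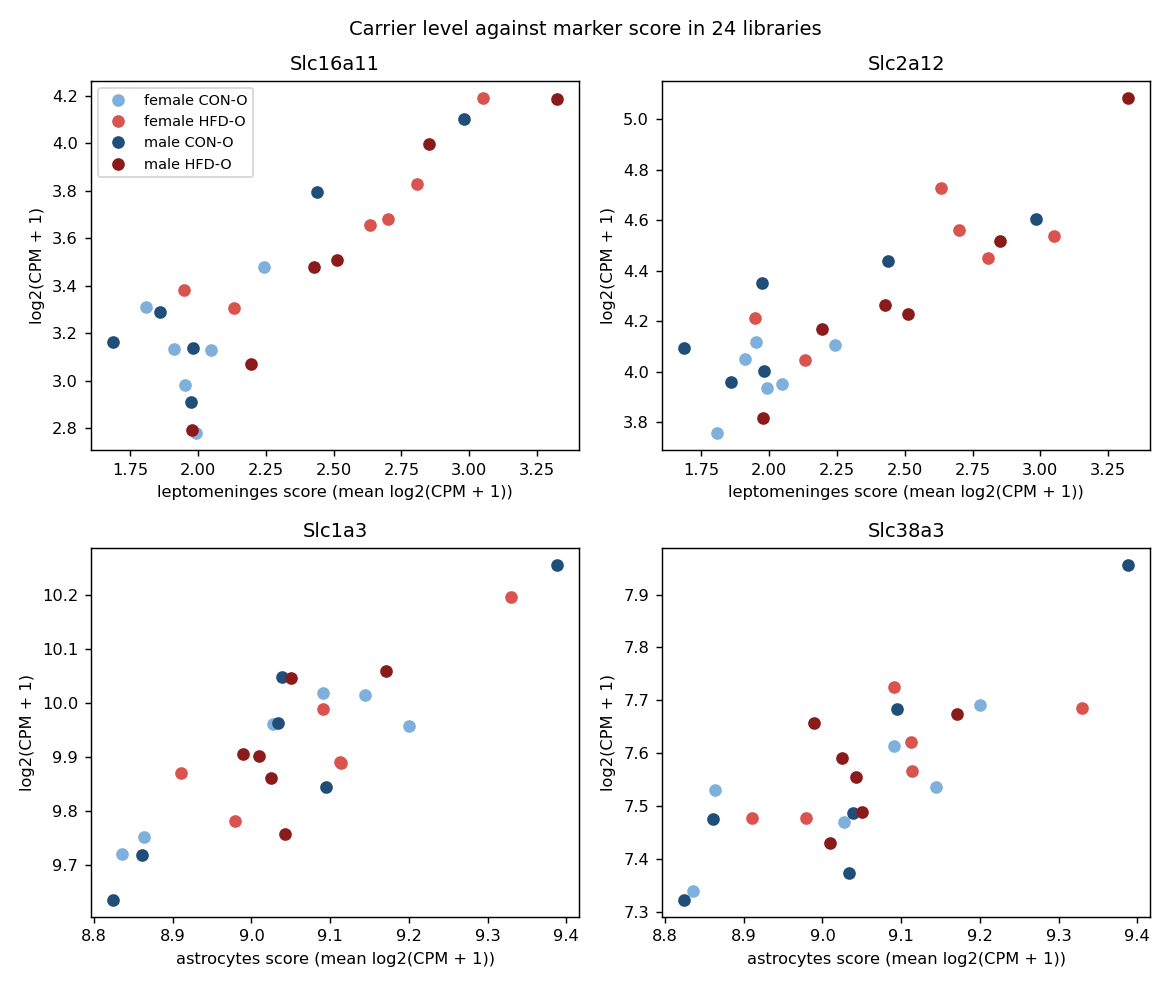
Level of 4 carriers on the log2 CPM scale against a marker score, 1 point per library, coloured by group. Slc16a11 and Slc2a12 rise with the leptomeninges score, and Slc1a3 and Slc38a3 rise with the astrocyte score, where male CON-O 11 has the highest score.

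How far carriers varied among pups of 1 group was compared with other genes at the same level. The median standard deviation of log2 CPM within groups was 0.193 for the 47 members and 0.154 for all genes. Set against the 500 genes nearest in level, 12 of 47 members were above the 90th percentile and 29 above the median. The most variable for its level was Slc1a2, with a standard deviation of 0.495 and a percentile of 100. Its lowest library was female CON-O 4, at 87.8 CPM and 580 counts, and its highest was female CON-O 8, at 321 CPM and 2242 counts, a ratio of 3.65 within 1 group. Both ends of the range therefore came from daughters of control dams.

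The same 2 libraries were also lowest and highest for Slc7a14, a family member found in neurons and retina. In female CON-O 4 and 8 Slc7a14 was at 16.2 and 38.6 CPM. Slc38a1 and Slc16a7 (MCT2, the neuronal lactate carrier) were lowest relative to their group in female CON-O 4 as well, at 96.1 and 7.11 CPM. Other members above the 90th percentile were Slc7a11, Slc7a2, Slc16a11, Slc2a1, Slc7a10, Slc2a12 and Slc1a3. Slc2a1, Slc7a10 and Slc1a3 were highest in male CON-O 11, at 163, 109 and 1223 CPM.

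Within families the spread was uneven. The highest and lowest standard deviations were 0.495 for Slc1a2 and 0.0936 for Slc1a4 (ASCT1) in Slc1a, 0.383 for Slc2a9 and 0.0881 for Slc2a13 in Slc2a, and 0.0897 for Slc3a1 and 0.0759 for Slc3a2 in Slc3a. They were 0.551 for Slc7a2 and 0.0844 for Slc7a5 in Slc7a, 0.559 for Slc16a8 and 0.130 for Slc16a1 in Slc16a, and 0.444 for Slc38a6 and 0.101 for Slc38a7 in Slc38a. Slc2a9, Slc7a2, Slc16a8 and Slc38a6 were also among the members with few counts.

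**Figure D5:**
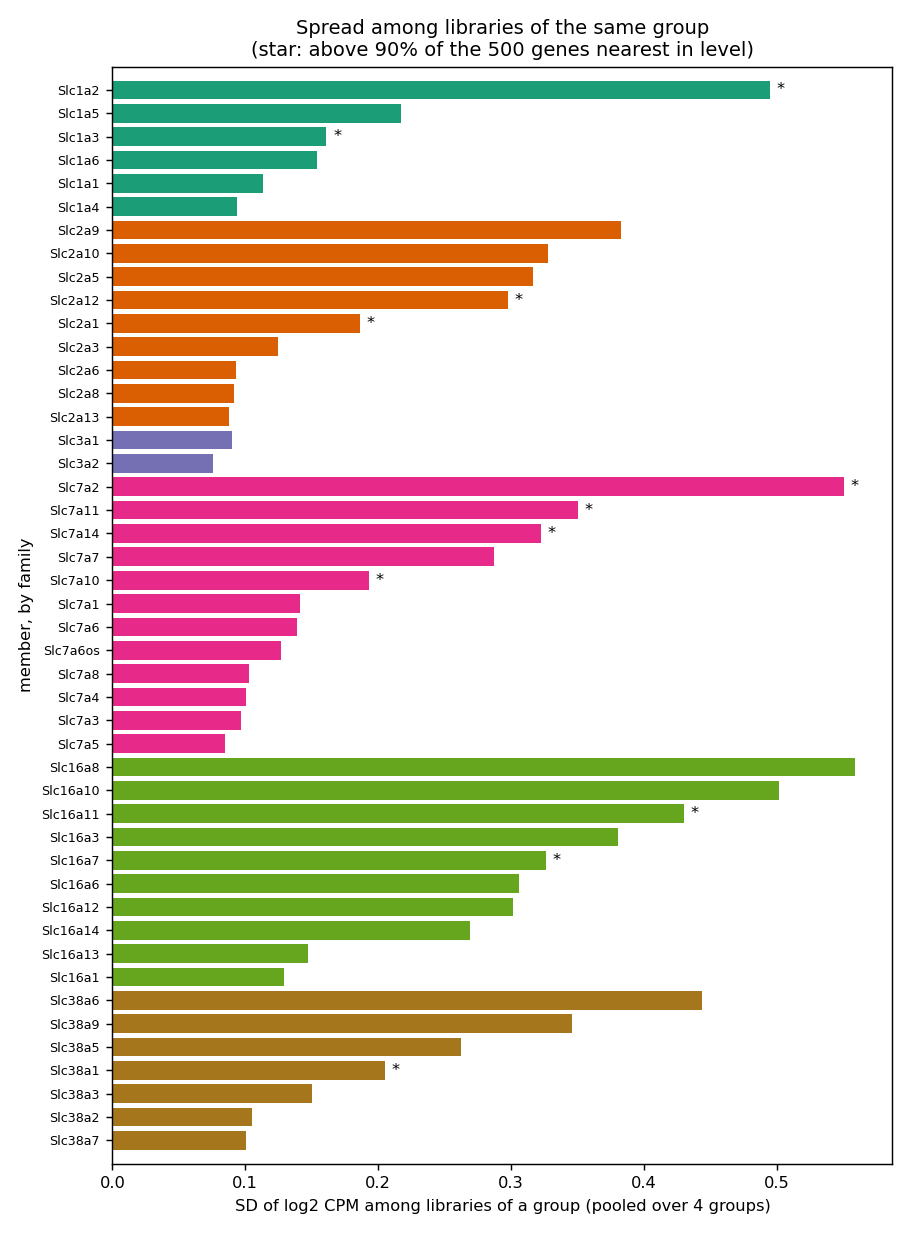
Standard deviation of log2 CPM within groups for 46 kept members, in bars by family, with a star for the 11 shown that lie above the 90th percentile of the 500 genes nearest in level. The bar of Slc1a2 reaches 0.495 and the next in its family, Slc1a5, 0.217.

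Genes that work beside the carriers were taken as fixed lists, and none of their members was called in daughters, sons or both. Bsg and Emb encode the membrane partners that monocarboxylate carriers need, and their fitted differences were above 0 in each sex. Emb differed by 0.22 ± 0.087 (SE; adjusted p = 0.949 by the quasi-likelihood test) in sons and 0.07 ± 0.084 in daughters, and Bsg by 0.02 ± 0.053 in sons and 0.08 ± 0.057 in daughters. Only Emb in sons had an unadjusted p under 0.05. Among genes of glucose use, 15 of 21 tested were higher in daughters and 17 of 22 in sons. In each sex 1 had an unadjusted p under 0.05, against 7.08% of all genes in daughters and 4.93% in sons. That gene was Txnip, which is induced by glucose and restrains glucose uptake, at 0.35 ± 0.083 (SE) in daughters and 0.31 ± 0.129 (SE) in sons. Its adjusted p over both sexes was 0.102 by the quasi-likelihood test. The study's own edgeR comparison listed Txnip among the genes it called in daughters.

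Ketone-use genes were higher in 5 of 5 cases in daughters and 3 of 5 in sons, none at an unadjusted p under 0.05. The glutamate and glutamine cycle had 4 of 9 tested genes higher in daughters and 3 of 9 in sons. Glul, also on that list, was not among the genes tested. Gad2, the enzyme that makes GABA from glutamate, was lower in daughters by the model at -0.28 (adjusted p = 0.563 by the quasi-likelihood test). Gad2 is also 1 of the 12 neuron markers, so this is not a separate observation from the lower neuron markers in daughters. Genes of the response to amino acid shortage were 6 of 13 higher in both sexes. In daughters 3 of the 13 had an unadjusted p under 0.05, against 7.08% of all genes, with adjusted p of 0.244 or more by the quasi-likelihood test. Nupr1, a stress-induced chromatin protein, was at 2.23 ± 0.567 (SE) and Ddit4, an inhibitor of the mTORC1 growth pathway, at 0.16 ± 0.063, while Sesn2, a leucine sensor, was at -0.31 ± 0.134. In sons Nupr1 was at 0.31 ± 0.597 (SE), and none of the list had an unadjusted p under 0.05. Thyroid hormone genes were higher in 1 of 6 cases in daughters and 3 of 6 in sons, and Slco1c1, a thyroxine carrier of brain endothelium, differed by 0.19 in sons (adjusted p = 0.957).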

How the data were processed

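Reads came from 24 hypothalamus libraries made with the TruSeq RNA kit. The study's methods name FastQC, Trimmomatic and Bowtie2, while the submitters' processing notes name FastQC, TopHat, edgeR and the rn6 build. The sources used here do not give the counter, the annotation or the strand setting. The authors deposited whole-number counts per gene in 1 table per sex, which were used as they stand. The 24 scaled columns and the columns of the authors' own comparison were not used.

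Genes were kept with edgeR's filter (count minimum 10, total minimum 15), scaled by TMM and tested with the quasi-likelihood F-test (edgeR 4.0.16, R 4.3.3), separately by sex and, over the 13841 genes in both tables, for both sexes, their difference and sex. Adjusted p-values are Benjamini-Hochberg over all genes tested. Shares of all genes at an unadjusted p under 0.05 were computed for the main diet, interaction and sex tests only. Member counts at that threshold under other tools have no such background. Alternatives were DESeq2 1.42.0, limma-voom 3.58.1, the likelihood ratio test, other scaling and filters, marker scores as terms, and each library left out. Permutation tests were exact and two-sided within a sex (smallest p 0.0022), and those of score pairs used 1e+05 draws, where the smallest p they can give is 1e-05. CPM is counts for every 1e+06 TMM-scaled counts of a library. A score is the mean log2(CPM + 1) of the kept markers.

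Named members were the 6 with the smallest unadjusted p for diet in each sex, in both and for sex, 3 for the difference between sexes, 4 for each score, the highest and lowest in spread of each family, and a fixed set of well-known carriers. Levels were not ranked between genes because transcript lengths were not used here. The tests and counts cover every member, but 1 is not reported here by name or in the plots. The members and lists were chosen with earlier results of these data known. The fits were tested on simulated data.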

Additional observations from a re-analysis of the deposited data

Results flagged for a closer look

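For the 37 named members, each group of 6 libraries was searched for a single library set apart from the other 5 by Dixon's test of the gap over the range. It marked 12 of 148 member and group pairs (8.11%), where chance gives about 1 in 20. No member's diet effect differed between the sexes by the interaction test.

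Of the 12, 5 were in male CON-O 11, the library with the low Agrp and Pomc. There Slc7a10 was at 109 CPM against 70.7 to 81.6 in the other male CON-O, Slc3a2 at 243 CPM against 208 to 219, and Slc1a1 at 66.6 CPM against 60.5 to 62.1. The same library was low for Slc2a3, at 67.8 CPM against 91.4 to 97.8, and for Slc38a2, at 126 CPM against 151 to 160.

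In the other male CON-O libraries, Slc16a14 was high in library 1 at 12.6 CPM against 8.28 to 9.48, and Slc7a6 was low in library 9 at 39.9 CPM against 48.8 to 51.4. In male HFD-O, Slc16a1 was low in library 19 at 116 CPM against 136 to 145. Slc1a5 was high in library 21 at 8.94 CPM against 7.48 to 7.95, and Slc2a3 was high in library 13 at 104 CPM against 90.4 to 92.8. In female HFD-O, Slc16a14 was high in library 24 at 14.0 CPM against 6.49 to 8.94, and Slc16a12 was low in library 16 at 3.24 CPM against 4.22 to 4.81.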

How the results depend on the processing

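Of 2454 fold changes under the alternatives, 2398 counted as the same and 54 as moved. For the members named by smallest p, the same meant an unchanged sign and call, whatever the size of the move. For the other fixed carriers it meant a move of less than the error. Large moves can therefore count as the same. With the leptomeninges score, Slc2a12 in daughters went from 0.48 to 0.21 and Slc16a11 from 0.61 to 0.15, and both did. A fold change took the other sign 121 times, 87 of them within its error. Slc2a12 in daughters passed the threshold by the likelihood ratio test, which made the number of members called 1. With the leptomeninges score in the model, Slc2a12 over both sexes went from 0.31 to -0.0104 and Slc16a11 from 0.38 to -0.10, and in sons they went to -0.16 and -0.28. With the erythroid score they went to 0.14 and 0.07 over both sexes, and to 0.00 and -0.12 in sons. With each library left out, 0 to 0 members were called for diet in daughters, diet in sons, diet in both sexes, their difference and sex, and the members at an unadjusted p under 0.05 numbered 4 to 10, 2 to 4 and 6 to 12 in daughters, sons and both.

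Leaving out libraries, members called on the leptomeninges score numbered 2 to 6 (6 without female CON-O 4, and 5 by the likelihood ratio test), on the endothelium score 3 to 8 (8 without male CON-O 5, 3 without male CON-O 11), on the astrocyte score 5 to 8 and on the oligodendrocyte score 0 to 4. Over all genes the calls ran from 106 to 886, 149 to 1157, 478 to 879 and 113 to 857 on these 4 scores. By the likelihood ratio test 454 genes were called on the leptomeninges score. On the erythroid score the members called numbered 0 to 1, with 1 by the likelihood ratio test and without male HFD-O 21, female HFD-O 22 or male HFD-O 23. Over all genes the calls on that score ran from 15 to 72 with a library left out, and were 62 by the likelihood ratio test. The cause was not tested. With neighbouring library numbers treated as correlated in limma-voom (consensus correlation 0.315), no member was called for diet in both sexes, and 1 gene in all against 18 without the correlation. The astrocyte, neuron and oligodendrocyte scores as model terms were chosen after seeing the data.

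Depth limits the members with few counts, such as Slc16a8, and the 10 below the filter. Which pups were siblings is not stated in the sources used here, but the CON-O libraries outnumber the paper's control litters and so include litter mates. The main fits over all 24 libraries treated them as independent. Litter mates within a diet group are not independent samples of the diet.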
